A study of Homo sapiens with 54 samples.

Results

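The genes FOXL2NB, TTN, NPTX1, FLJ46120, LINC00458 and SCGB3A2 are 6 of the 20408 genes named on the arrays. They were chosen from earlier results of these same data, as transcripts with large falls without FGF or with FGFC. The choice was not limited to H1, so their values in these comparisons are a description in every system and carry no test. RNA of human pluripotent stem cells was measured on 54 one-colour Agilent arrays, which hold 27 cultures on 2 arrays each. In 3 experiments, H1 ESCs in E8 Medium, made of Essential 6 Medium, TGF-beta 1 at 2 ng/mL and bFGF at 100 ng/mL, were measured as a pre-culture and after 4 days with this bFGF, with FGFC at 100 ng/mL in its place or with neither. The labels put the pre-cultures of experiments 1, 2 and 3 at passage 48, 49 and 50 and the 4-day arms at passage 49, 59 and 51, so that the arms of experiment 2 are not the next passage, and 5 arrays of experiment 3 carry a different passage in other label fields. FGFC is a heat-stable chimera of FGF1 and FGF2, and the comparison asked whether it can stand in for bFGF. In 5 long-term systems, a pre-culture, a bFGF culture and an FGFC culture were measured once each. These were H1 in E8 Medium for 30 days and 253G1 iPSCs in E8 Medium for 36 days, both with 100 ng/mL of the factor, H1 in medium conditioned by mouse embryonic fibroblasts (MEF-CM) for 41 days and KhES-1 ESCs on MEF feeder cells for 30 days, both with 5 ng/mL, and 201B7 iPSCs on MEF feeder cells for 50 days with 10 ng/mL. A single culture of H1 cells kept in E8 Medium and then differentiated through embryoid bodies, the study's positive control for differentiation, completed the set.

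In human pluripotent cells, FGF acts through receptor tyrosine kinases and the ERK cascade and works together with TGF-beta signals to hold the undifferentiated state, and without it such cells tend to leave this state, often toward ectoderm. The 6 genes come from unrelated families. FOXL2NB is the divergent neighbour of the forkhead gene FOXL2, TTN encodes the giant sarcomere protein titin, NPTX1 a secreted neuronal pentraxin found at synapses, and SCGB3A2 a small secretoglobin known from airway epithelium, while LINC00458 is a long intergenic noncoding RNA and FLJ46120 is a transcript named after a cDNA clone.

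Each value below is a normalized signal, the log2 of the spot signal minus the 75th percentile of its array, averaged over the duplicate arrays, so that 0 is the 75th percentile. By the mark of the scanner software, 56.1% to 79.2% of the probes of an array were well above background (median 67.5%), and the number of arrays limits the precision. The genes have 11 probes. FOXL2NB, NPTX1, FLJ46120 and SCGB3A2 have 1 each, TTN has 3 and LINC00458 has 4, and the probe with the highest mean over all arrays gives the value of its gene. These lead probes were well above background on 46 of 54 arrays for FOXL2NB, 49 for TTN, 54 for NPTX1, 42 for FLJ46120, 46 for LINC00458 and 54 for SCGB3A2. The median gap between duplicate arrays was 0.07 for SCGB3A2 and 0.21 for LINC00458, with the other genes between 0.11 and 0.17. Where a probe was well above background on no array, or on 1 of 6 arrays, of the lower group, and for the other probes of TTN and LINC00458 also on 2 of 6, the difference is a bound, "at least N-fold", which sets the mean of the higher group against, for each array, the higher of the lowest signal among probes well above background and the probe's own signal.

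FOXL2NB was high in every H1 culture of the 3 experiments that received an FGF and not well above background in any of the 3 cultures without it. It was at 0.29, 0.02 and 0.71 with bFGF in experiments 1, 2 and 3, at -0.23, -0.91 and -0.32 with FGFC, at 1.16, 1.03 and 0.20 before culture, and at -6.42, -5.79 and -6.49 without FGF. The groups with and without FGF did not overlap. The mean was 0.34 ± 0.35 (SD, n = 3) with bFGF and -6.23 ± 0.39 without FGF on 0 of 6 arrays well above background, so that FOXL2NB was at least 49.3-fold lower than with bFGF and at least 27.8-fold lower than with FGFC. These are bulk samples, in which fewer cells of a type and less RNA per cell cannot be told apart.

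The start of FOXL2NB lies head to head with that of FOXL2, a transcription factor of ovarian granulosa cells and eyelid development. In the RefSeq promoter table (GRCh38.p14) the 2 starts are 79 bases apart on opposite strands of chromosome 3, and the promoter windows of 300 bases around each start share 179 bases. The window of FOXL2NB, chr3:138946967-138947266 on the plus strand, is shown as a description, and its part in the values was not tested. The capitals mark the 79 bases between the starts, and 68.0% of the window is G or C.

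FOXL2NB: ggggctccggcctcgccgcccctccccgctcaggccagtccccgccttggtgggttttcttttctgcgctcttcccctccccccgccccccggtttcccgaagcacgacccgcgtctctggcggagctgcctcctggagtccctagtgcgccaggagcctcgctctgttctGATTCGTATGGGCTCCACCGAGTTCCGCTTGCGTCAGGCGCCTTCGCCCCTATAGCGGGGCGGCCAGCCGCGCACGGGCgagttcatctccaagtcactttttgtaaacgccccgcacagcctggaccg

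FOXL2 went with its neighbour. Its lead probe was at -1.64, -1.84 and -1.82 with bFGF and at -6.22, -5.78 and -6.41 without FGF, where 0 of 6 arrays were well above background. It was at least 11.6-fold lower without FGF (limma adjusted p = 8.98e-06, lower in 3 of 3 experiments), and this call held in all 8 alternative settings, with an adjusted p of up to 0.00637. FOXL2 was examined as the neighbour of a gene chosen for its fall in this contrast, so these p-values are not independent of the choice. A second probe of FOXL2 was not well above background on any array with bFGF or without FGF and gives no fold.

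TTN behaved like FOXL2NB in the 4-day cultures. Its level was 0.84, 0.62 and 0.66 with bFGF, -0.28, -0.02 and -0.30 with FGFC, 1.14, 0.75 and 0.31 before culture, and -5.88, -5.19 and -5.83 without FGF. No culture without FGF came near the others, and only 1 of its 6 arrays was well above background. TTN was at least 62.9-fold lower than with bFGF and at least 33.6-fold lower than with FGFC. The other 2 probes of TTN, well above background on 30 and 18 of 54 arrays, were at least 3.31-fold and at least 1.62-fold lower than with bFGF, and neither was well above background on any array without FGF.

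FLJ46120 also left the range of the other cultures without FGF. It was at 0.65, 0.38 and 0.43 with bFGF, at -0.45, 0.29 and 0.07 with FGFC, at 0.94, 0.27 and -0.11 before culture, and at -6.18, -4.63 and -5.92 without FGF. The groups did not overlap, and 1 of 6 arrays without FGF was well above background, an array of experiment 2, whose duplicates lay 2.48 apart. FLJ46120 was at least 45.8-fold lower than with bFGF and at least 32.0-fold lower than with FGFC.

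LINC00458, a noncoding RNA known from pluripotent stem cells, had the same order of groups. Its lead probe is named after the lincRNA region chr13:54698461-54706997 on the reverse strand in the array's coordinates (hg19), and its own position within that region is not given. The level was -2.10, -1.76 and -2.28 with bFGF, -2.08, -2.89 and -2.82 with FGFC, -1.46, -2.34 and -3.54 before culture, and -6.38, -6.47 and -6.58 without FGF. All 3 cultures without FGF lay below every other 4-day culture, and 0 of 6 arrays were well above background. LINC00458 was at least 9.57-fold lower than with bFGF and at least 6.52-fold lower than with FGFC. Of its other probes, 2 followed the lead probe over the 27 cultures (r = 0.94 and 0.96) and were at least 6.00-fold and at least 2.23-fold lower than with bFGF, with 0 of 6 arrays well above background without FGF. The last did not follow it (r = -0.01), was well above background on only 15 of 54 arrays, 3 of 6 with bFGF and 1 of 6 without FGF among them, and its groups overlapped.

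NPTX1 was measured in every culture, and all 6 arrays without FGF were well above background. Its level was 1.21, 2.59 and 0.17 with bFGF, 1.08, 3.89 and 3.05 with FGFC, -0.22, 1.61 and -1.65 before culture, and -3.82, -2.88 and -3.82 without FGF. The cultures without FGF were the lowest, but the cultures with FGF and the pre-cultures spread over several log2 units. NPTX1 was 28.4-fold lower without FGF than with bFGF (-4.83 ± 0.76) and 72.5-fold lower than with FGFC (-6.18 ± 1.11).

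SCGB3A2 differed least of the 6 genes and was well above background on all arrays. Its level was 3.85, 3.96 and 2.70 with bFGF, 4.06, 3.18 and 2.17 with FGFC, 3.80, 3.92 and 3.17 before culture, and 3.23, 1.97 and 0.42 without FGF. The groups overlapped, since the culture without FGF of experiment 1 was above the bFGF culture of experiment 3. Within each experiment the culture without FGF was lower, by -0.62, -2.00 and -2.28, with a mean of -1.63 ± 0.89.

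The RefSeq promoter window of SCGB3A2, chr5:147878461-147878760 on the plus strand (GRCh38.p14), was the only window among the 3 members with an entry in the table to hold any of the motifs searched. On both strands these were the octamer ATGCAAAT, found in 1.77% of 35116 promoter windows, the ETS motif CCGGAAG (10.3%), the SMAD motif GTCTAGAC (0.202%), the FOXH1 motif AATCCACA (0.817%), the AP-1 motif TGAGTCA (4.95%) and the TATA box TATAAA (11.5%). In the SCGB3A2 window, the capitals mark the AP-1 letters at 73 bases and the TATA box letters at 30 bases before the start. A match is a description of the letters, and the windows of FOXL2NB and TTN do not hold these letters.

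SCGB3A2: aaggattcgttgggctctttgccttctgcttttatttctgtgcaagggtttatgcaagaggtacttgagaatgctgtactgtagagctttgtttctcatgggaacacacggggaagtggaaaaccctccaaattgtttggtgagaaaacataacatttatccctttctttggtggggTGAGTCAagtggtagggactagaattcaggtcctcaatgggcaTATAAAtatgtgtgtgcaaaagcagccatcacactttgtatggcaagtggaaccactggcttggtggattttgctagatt

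**Figure D1:**
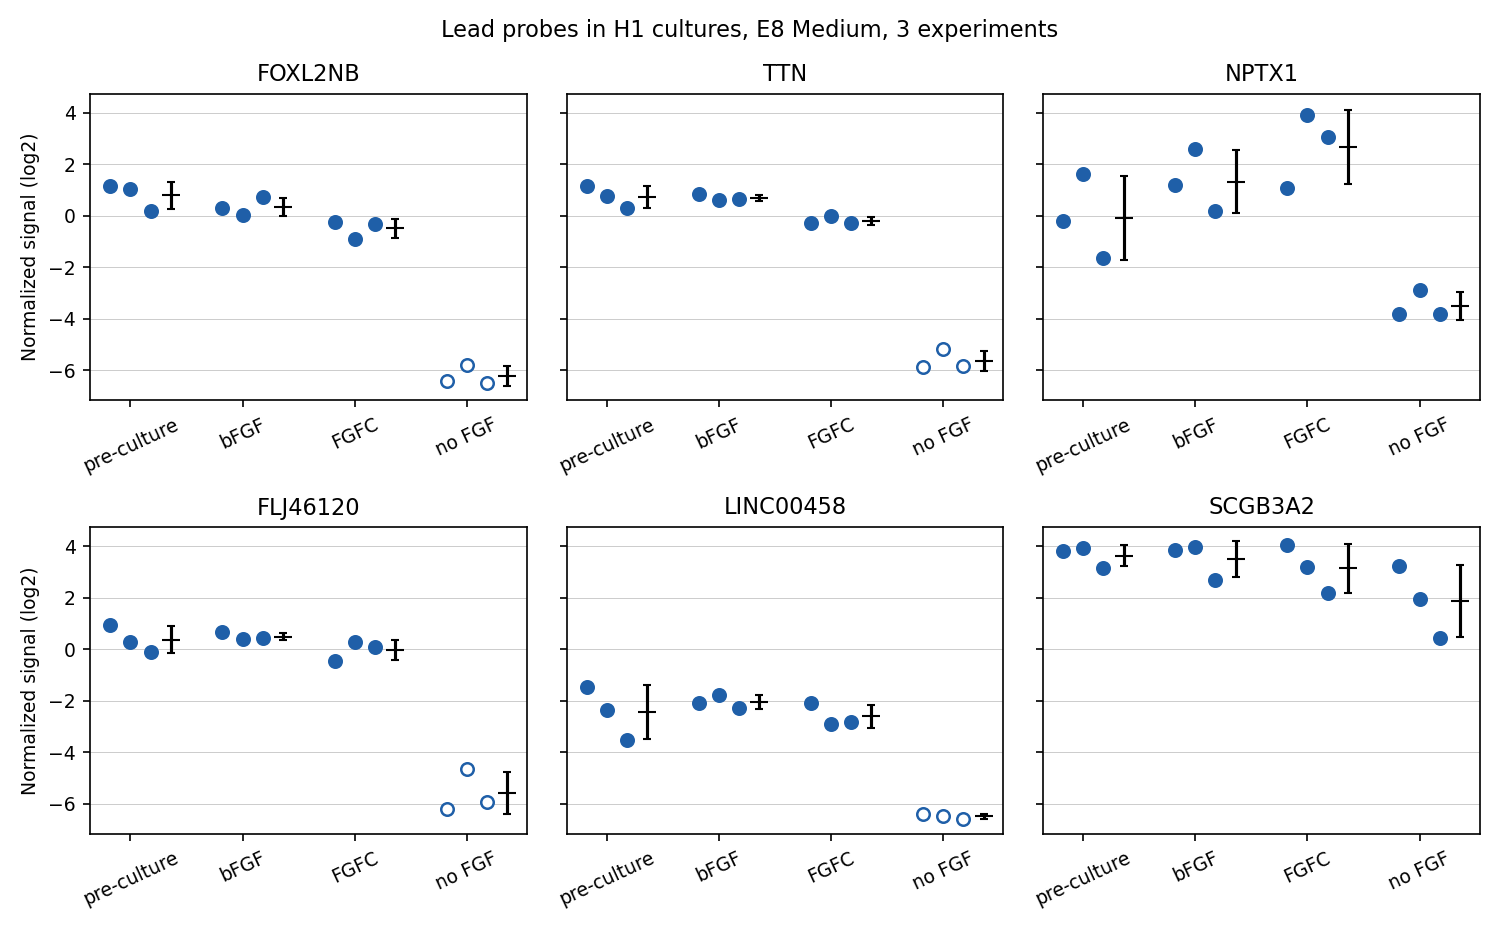
Normalized log2 signal (vertical axis) of the lead probe of each gene in H1 cultures in E8 Medium, where each circle is 1 culture of experiments 1 to 3 from left to right, filled where both arrays were well above background and open where not, and the bars give the mean and SD of 3 cultures. The cultures without FGF of FOXL2NB lie at -6.49 to -5.79 against 0.02 to 0.71 with bFGF, while those of SCGB3A2 at 0.42 to 3.23 overlap with the bFGF cultures at 2.70 to 3.96.

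Over all probes, 3051 of 42405 were lower without FGF than with bFGF past an adjusted p of 0.05 with limma, which is 7.19%, and 2349 were higher (5.54%). Against FGFC 6.07% of all probes were lower. The 6 genes are not counted here, since these contrasts chose them. In experiments 1 and 3 the 3 arms shared a slide, so the differences given for those experiments are within a slide. For experiment 2, FGFC and no FGF shared a slide, and bFGF was on a separate one. The counts over all probes depended on the experiments. They were 3557, 1942 and 1272 against bFGF and 3840, 1480 and 974 against FGFC without experiment 1, 2 or 3, compared with 5400 and 4575 in all. With normexp background correction, which adds an offset of 50 and narrows differences at low signal, the difference from bFGF was -3.75 for NPTX1 and -1.60 for SCGB3A2. It was -3.81 for TTN, -3.64 for FOXL2NB, -3.28 for FLJ46120 and -1.80 for LINC00458, each less than the bound given above, so that those bounds hold only for the background correction used here.

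Between FGFC and bFGF after 4 days the differences were smaller. FOXL2NB was lower with FGFC in each experiment (-0.52, -0.93 and -1.04) and so was TTN (-1.11, -0.64 and -0.96). Falls with FGFC were part of the choice, so these values are a description. NPTX1 was at -0.13, 1.31 and 2.88 relative to bFGF, a mean of 1.35 ± 1.51 that lies within its spread. FLJ46120 differed by -0.52 ± 0.53, LINC00458 by -0.55 ± 0.58 and SCGB3A2 by -0.37 ± 0.52. In limma's test 0 of 42405 probes passed (0% lower), none of the 6 genes among them, and 1262 had an unadjusted p under 0.05, with 258 to 4450 in the alternatives, in all of which 0 passed.

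In the same H1 cultures, the lists of other genes show what went along with these values after 4 days without FGF, in limma's test against bFGF. A list is described by its counts and its median difference, beside a median of 0.01 over all probes. The lists were chosen with earlier results of these data known. Of 18 pluripotency markers, 9 fell, 2 rose and 7 did not pass (median -0.63), while without experiment 1, 2 or 3 the counts were 7, 4 and 3 lower and 1 higher each. CRIPTO, a co-receptor of the ligand NODAL also known as TDGF1, fell by 3.32 (adjusted p = 3.06e-06), NODAL fell by 2.19 (0.0115), LEFTY1 by 1.93 (0.0469), NANOG by 1.71 (0.000958) and POU5F1 by 1.08 (0.00855). CRIPTO held in all alternatives, whereas the adjusted p was up to 0.0917 for NODAL without experiments 1 or 2, up to 0.177 for LEFTY1 without any one experiment, 0.0562 for NANOG without experiment 3 and up to 0.171 for POU5F1 without experiments 2 or 3. The 2 that rose, named after their values were seen, were SOX2, by 1.32, and SALL4, by 0.82 (adjusted p of up to 0.173 without any one experiment). All 18 markers were well above background on both arrays of each culture without FGF, and their summed level on the log2 scale was 9.17, 8.74 and 8.74 there against 9.53, 9.61 and 9.34 with bFGF. The probe with the highest signal among them was that of POU5F1, at 8.07 with bFGF. FOXL2NB and LINC00458 were not well above background on any array of cultures in which all of these markers were. Such detection does not show that the markers kept their level. In the differentiated H1 culture 16 of 18 were also well above background on both arrays, at a summed level of 5.79.

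Of 18 feedback and target genes of FGF and ERK, 7 fell, 2 rose and 9 did not pass (median -0.33), while the counts without experiment 1, 2 or 3 were 7, 6 and 1 lower and 0 higher each. DUSP6, a phosphatase that acts on ERK, fell by 2.66 (limma adjusted p = 0.0122, up to 0.129 without experiments 2 or 3 or with slide as a block), and SPRY4, an inhibitor of receptor signalling, fell by 2.40 (0.000839). IER3 fell by 2.09 (0.00169, and 0.0811 without experiment 3) and MYC by 2.02 (0.000846, and 0.0736 without experiment 3). The 2 that rose, named after their values were seen, were EGR1, by 1.57 (up to 0.101 without any one experiment), and DUSP4, by 0.58 (up to 0.413 without any one experiment or with slide as a block). Of 7 neural markers, 4 rose and 3 did not pass (median 1.77), among them LHX2 by 7.52 (0.000143), PAX6, at least 37.7-fold higher (0.000266), and MAP2 by 2.65 (0.000209), and OTX1, named after its value was seen, rose by 1.77 (up to 0.117 without experiments 2 or 3). Their summed level was 2.79, 5.34 and 5.09 without FGF against 0.13, 0.41 and 0.71 with bFGF, with 4 of 7 on both arrays above background in each culture without FGF. The highest signal was that of LHX2, at 3.51 without FGF, while SOX1 and NEUROG2 were not well above background on any of these arrays, with bFGF or without FGF. Whether a change in the kinds of cells has a part in the low values of the 6 genes was not tested.

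The relatives of the 6 genes by family or function did not share one pattern. Of 6 other pentraxins, 1 fell and 5 did not pass (median 0.21), and 0 passed without any one experiment. That one was NPTX2, which fell by 0.73 (limma adjusted p = 0.0414, up to 0.319 without any one experiment or with slide as a block). None of 8 other secretoglobins passed (median 0.39), only SCGB1A1 and SCGB3A1 were above background, and SCGB3A1 differed by -0.12 (adjusted p = 0.782). The median of the 2 above background was -0.11. Of 8 airway epithelium markers, only FOXJ1, a regulator of motile cilia, passed, and it fell by 2.90 (0.000134), while NKX2-1, the lung and thyroid factor, was not well above background on any array with bFGF or without FGF. The list median was -0.08, and it was 0.08 with normexp background correction.

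Titin works in the sarcomere, and of 25 other sarcomere genes and titin partners 4 fell, 5 rose and 16 did not pass (median 0.06). Over the 19 well above background in a group the median was -0.14. TNNT2, which encodes cardiac troponin T, fell by 2.65 (limma adjusted p = 0.00037) and the cytoskeletal linker OBSL1 by 1.89 (0.000213). NEB, which encodes nebulin, fell by 1.99 (0.0178, up to 0.193 without experiments 2 or 3 or with slide as a block), and MYL3, a myosin light chain, was at least 3.80-fold higher (0.00858, up to 0.0811 without experiments 2 or 3). The others, LDB3 at -0.81 and MYL2, TNNC1, TPM1 and MYOM2 at 0.77 to 1.05, were named after their values were seen, and each lost the call in some alternatives. The counts of this list were 4 lower and 3 higher without experiment 1 and 2 lower and 0 higher without experiment 2 or 3. Of 8 genes around FOXL2 and granulosa cells, 2 fell, 3 rose and 3 did not pass (median 0.38), against 1 lower each and 3, 2 and 1 higher without experiment 1, 2 or 3. The median was -0.29 over the 5 genes well above background in a group and 0.12 with normexp background correction. Apart from FOXL2, FST, which encodes the activin antagonist follistatin, rose by 4.00 (8.49e-06), AMH rose by 1.66 (0.000538, and 0.0511 without experiment 3) and INHA was at least 2.33-fold lower, with 1 of 6 arrays well above background without FGF (0.0232, up to 0.283 in 5 of the alternatives). The remaining riser, AMHR2, was well above background on 1 of 6 arrays in each arm and gives no fold.

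The 2 nearest genes on each side along the chromosome were described as well, in the order of the RefSeq table, by their difference without FGF against bFGF. Next to FOXL2NB, beyond FOXL2, lies PIK3CB at -0.94. On the other side lie PRR23A, not well above background on any array of either arm, and PRR23B at 0.09, with 5 of 6 arrays well above background with bFGF and 2 of 6 without FGF. Beside TTN lie PLEKHA3 at 0.35 and FKBP7 at 0.46, neither of which passed, and on the other side CCDC141, at least 16.1-fold lower (limma adjusted p = 1.47e-05, up to 0.00482 in the alternatives), with 1 of 6 arrays well above background without FGF. Another probe of CCDC141 gave -2.63, with 4 of 6 such arrays. CCDC141 was examined as the neighbour of a gene chosen for its fall in this contrast, so its p-value is not independent of the choice. Beyond CCDC141, SESTD1 was at 0.29 and did not pass. Beside NPTX1 lie ENDOV at -0.03 and RNF213 at -1.55, and on the other side RPTOR at 0.21. Beside LINC00458 lie OLFM4, not well above background on any array of either arm, and PCDH8 at 1.76, with 3 of 6 arrays well above background with bFGF and an adjusted p of 0.192. Beside SCGB3A2 lie SPINK1 at -1.61 (0.0964) and JAKMIP2 at -2.43, and on the other side C5orf46, with 0 and 1 of 6 arrays above background, and SPINK5 at -1.26 (0.0795). RNF213, JAKMIP2 and PRR23B are in no list and are given without a test, and the remaining neighbours of NPTX1 and LINC00458 have no named probe. A further list of 22 genes was drawn up around the members, and 4 of them fell, 1 rose and 17 did not pass (median 0.08). Not all of them lie near a member, and MME and PLCH1 are not among the neighbours described above. PLCH1 rose by 1.82 (6.82e-05), MME fell by 1.28 (0.00129) and PIK3CB fell by 0.94 (0.0057, up to 0.124 without any one experiment).

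In the long-term systems each arm is 1 culture and no difference has a replicate check. The first described is H1 in E8 Medium, where falls with FGFC were part of the choice. There FGFC minus bFGF at 30 days was -1.50 for FOXL2NB, -2.36 for TTN, -1.04 for NPTX1, -4.27 for FLJ46120 and -2.76 for SCGB3A2, and LINC00458 was lower as well. All 6 were lower by 2-fold or more, beside 5.17% of all probes, and nothing is read from the count, since falls with FGFC were part of the choice. LINC00458 was at -3.41 with bFGF and not well above background on either array with FGFC, at least 5.71-fold lower. SCGB3A2, which overlapped between the 4-day arms, was at 3.17 with bFGF and 0.42 with FGFC, the latter as low as the lowest 4-day culture without FGF. The FGFC culture kept all 18 pluripotency markers on both arrays, at a summed level of 9.95 against 9.84 with bFGF, and its neural markers were at 1.87 against 0.53. The bFGF culture itself was below the pre-culture of experiment 1 for each gene, by -0.63 for SCGB3A2 to -1.96 for LINC00458.

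The other systems are described beside it, and no contrast with H1 in E8 Medium is read, since its values were part of the choice. Falls with FGFC in the other systems may have been part of the choice too. In 253G1 iPSCs in E8 Medium, FGFC minus bFGF was -0.89 for FOXL2NB, -0.73 for TTN, -0.25 for NPTX1, -2.27 for FLJ46120, -2.23 for LINC00458 and -0.42 for SCGB3A2, so that all 6 were lower and 2 by 2-fold or more, beside 4.83% of all probes. FLJ46120 and LINC00458 have named probes only because the study listed these as differing 2-fold or more between FGFC and bFGF in long-term culture. They could be chosen only in this way, so nothing is read from the counts of 2-fold falls in any system. FLJ46120 was well above background on 1 of 2 arrays of that FGFC culture. In H1 in MEF-CM the values ran from -1.06 for LINC00458 to 0.76 for FOXL2NB, and 1 gene was lower by 2-fold or more, beside 2.96% of probes. In KhES-1 all 6 were higher with FGFC, from 0.09 for SCGB3A2 to 1.39 for FLJ46120, and 0 were lower by 2-fold or more, beside 1.29%. In 201B7 the range was -0.51 for TTN to 1.15 for NPTX1, with 0 lower by 2-fold or more, beside 5.02%. Both systems in E8 Medium had 100 ng/mL of factor and the others 5 or 10 ng/mL, so that medium and dose cannot be told apart. The systems in E8 Medium differ in line, and the H1 systems share it. Only in 201B7 and 253G1 were both agents on 1 slide, and in both H1 systems and KhES-1 they lay on different slides, where slide and agent cannot be told apart.

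**Figure D2:**
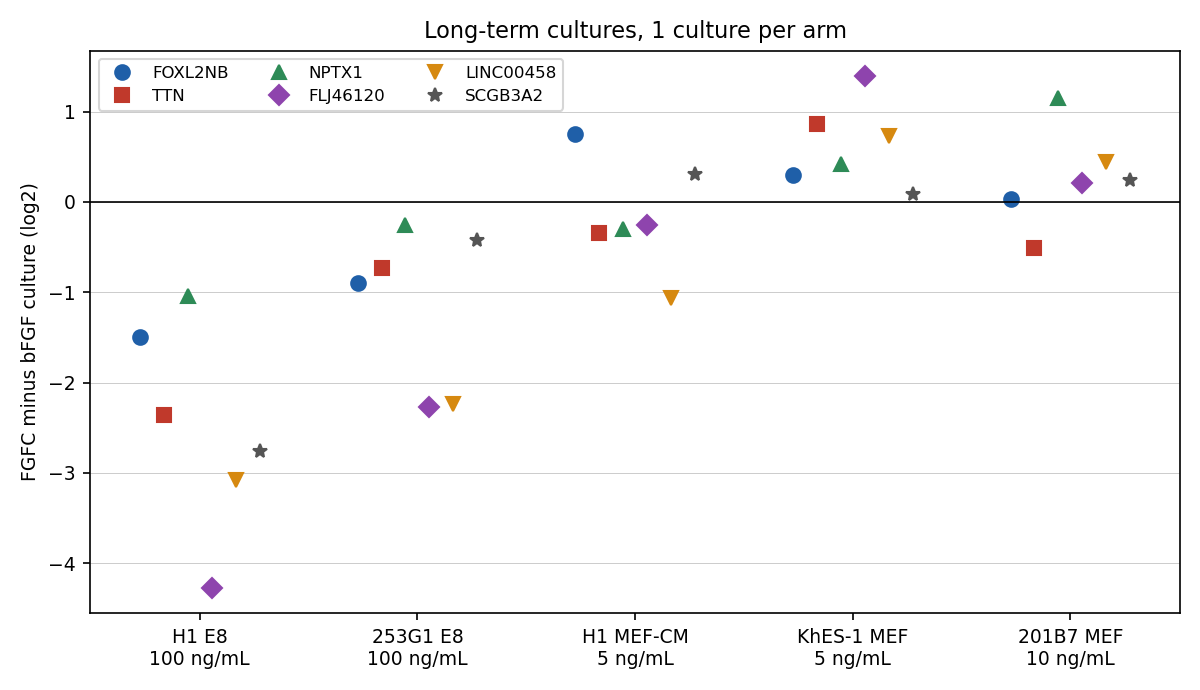
Difference in normalized log2 signal between the FGFC and the bFGF culture (vertical axis) of each long-term system (horizontal axis, with the dose of the factor), where each symbol is the lead probe of 1 gene, from 1 culture per arm on 2 arrays. All 6 genes lie at -1.04 or below in H1 in E8 Medium, where the values were part of the choice of the genes, and above 0 in KhES-1. The values of the other systems may have been part of the choice too.

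The levels of the genes also differed between lines and media. Each system was set against H1 in E8 Medium with limma over 3 cultures a system, the pre-culture, the bFGF and the FGFC culture. This H1 group holds the 30-day bFGF and FGFC cultures, and the difference between them was part of the choice, so its p-values are not independent of the choice. Results are therefore also given without the FGFC cultures, which still keeps the 30-day bFGF culture in the H1 group. They are given as well with the pre-cultures of experiments 1 to 3 as the H1 group, a setting chosen after the data were seen. That group holds no H1 culture of the arms compared in the choice. The other systems keep their bFGF and FGFC cultures there, which may have been part of the choice. The p-values measure the spread between cultures of 1 line in 1 line of passages. Slide and scan day differ together with line, medium and FGF dose in KhES-1 and 201B7. They differ together with line in 253G1, and with medium and FGF dose in MEF-CM. The median over all probes was shifted by -0.46 for KhES-1, by -0.18 for 201B7 and by -0.15 for MEF-CM, against 0.01 for 253G1, so that the differences of the lead probes past the test over these cultures are given relative to this median as well. The shifts for KhES-1, 201B7 and MEF-CM were -0.52, -0.19 and -0.15 without the FGFC cultures and -0.48, -0.07 and -0.11 against the 3 pre-cultures. With normexp background correction the shifts were -0.13, 0.21, -0.21 and -0.11. The arrays of the 201B7 pre-culture stood apart, with 75th percentile signals of 181.5 and 234.1, against 504.2 to 913.5 on all others. Without the pre-cultures the differences in 201B7 were -1.92 for FOXL2NB and 5.23 for NPTX1.

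NPTX1 was higher in the 3 other lines than in H1 in E8 Medium. Against -0.22, -1.57 and -2.60 in H1 in E8 Medium (mean -1.46 ± 1.19), it was at 3.53, 3.90 and 4.32 in KhES-1, at 1.10, 2.56 and 3.72 in 201B7 and at 1.66, 2.28 and 2.03 in 253G1, and at -2.90, -2.47 and -2.77 in H1 in MEF-CM. None of the 3 other lines overlapped with these 3 H1 cultures, but the H1 pre-cultures and 4-day cultures with an FGF in experiments 1 to 3, at -1.65 to 3.89, overlapped with all of them. NPTX1 was higher by 5.38 (95% interval 4.10 to 6.67, limma adjusted p = 3.82e-05, 5.84 relative to the median) in KhES-1, by 3.92 (2.64 to 5.21, 0.000545, 4.11) in 201B7 and by 3.46 (2.17 to 4.74, 0.00272, 3.45) in 253G1, in 3 of 3 cultures each. Without the FGFC cultures these were 4.61, 2.72 and 2.87, and against the 3 H1 pre-cultures 4.01, 2.55 and 2.08 (adjusted p = 0.000573, 0.0162 and 0.0356), all past the test. The call in 253G1 was lost without the bFGF cultures (3.26, adjusted p = 0.103, in a range from 0.000708), while those in KhES-1 and 201B7 held in all 9 alternatives. In MEF-CM the difference of -1.25 did not pass (0.138), but it was -2.63 against the 3 pre-cultures and passed (0.0184, in a range of up to 0.382).

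SCGB3A2 was highest in KhES-1, at 6.12, 5.73 and 5.82, then in H1 in MEF-CM, at 5.16, 4.91 and 5.22, against 3.80, 3.17 and 0.42 in H1 in E8 Medium. Neither group overlapped with H1 in E8 Medium. It was higher by 3.42 (95% interval 2.13 to 4.72, limma adjusted p = 0.000769, 3.88 relative to the median) in KhES-1, which held in all alternatives (2.44 without the FGFC cultures and 2.26 against the 3 H1 pre-cultures), and by 2.63 (1.33 to 3.93, 0.00520, 2.78) in MEF-CM. The value in MEF-CM was 1.55 without the FGFC cultures (adjusted p = 0.0226) and 1.46 against the 3 pre-cultures (0.00104), and the call was lost without the bFGF cultures (3.08, adjusted p = 0.0591, in a range from 0.00104). In 201B7 (3.76, 3.76 and 4.00) and 253G1 (2.01, 2.84 and 2.43) the differences of 1.38 and -0.04 did not pass, and in 253G1 the direction depended on the setting, from 0.84 without the pre-cultures to -1.20 against the 3 H1 pre-cultures, where alone it passed (0.00304, in a range of up to 0.972).

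FOXL2NB went the other way and was lower in the lines grown on feeder cells. It was at -4.23, -3.84 and -3.54 in KhES-1 and at -1.57, -2.85 and -2.82 in 201B7, against 1.16, -0.16 and -1.66 in H1 in E8 Medium. The KhES-1 cultures lay below all of these, and the 201B7 group overlapped with the H1 group. The difference was -3.65 (95% interval -4.88 to -2.42, limma adjusted p = 0.000357, -3.19 relative to the median) in KhES-1, which held in all alternatives, and -2.19 (-3.42 to -0.97, 0.0143, -2.01) in 201B7, which was lost without the bFGF cultures (-1.94, adjusted p = 0.203, in a range from 9.08e-05). In MEF-CM (0.13, -0.69 and 0.06) and 253G1 (0.04, 0.03 and -0.87) FOXL2NB differed from H1 in E8 Medium by 0.05 and -0.05, with adjusted p-values of 0.958 and 0.965 and intervals of -1.18 to 1.28 and -1.27 to 1.18. These values depended on the H1 group, at -0.78 and -0.47 without the FGFC cultures and at -0.97 (0.096) and -1.06 (0.0509) against the 3 H1 pre-cultures, and did not pass there either. In KhES-1 and 201B7 the differences of FOXL2NB were -4.53 and -2.71 without the FGFC cultures and -4.67 and -3.21 against the 3 H1 pre-cultures (adjusted p = 3.7e-06 and 9.08e-05). FOXL2 was lower in the same systems, by -1.68 in KhES-1 (adjusted p = 0.00144, -1.22 relative to the median) and by -1.91 in 201B7 (0.00121, -1.73).

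TTN was lower in KhES-1, at -2.52, -3.51 and -2.64 against 1.14, 0.27 and -2.09 in H1 in E8 Medium. The groups did not overlap, although the H1 culture with FGFC came close to KhES-1. The difference of -2.67 (95% interval -3.98 to -1.35, limma adjusted p = 0.00361, -2.21 relative to the median) was lost without the bFGF cultures (-2.11, adjusted p = 0.0981, the highest in a range from 7.16e-06). It was -3.72 without the FGFC cultures and -3.62 against the 3 H1 pre-cultures, both past the test. The other 2 probes of TTN also passed but were well above background on few arrays. They were at least 3.00-fold lower (0.0103), on 2 of 6 arrays in KhES-1 and 4 of 6 in H1 and with overlapping groups, and at least 2.33-fold lower (0.0101), on 1 of 6 and 2 of 6 arrays. Both also passed without the FGFC cultures and against the 3 pre-cultures. TTN did not pass in MEF-CM (0.98, 1.53 and 1.19), where the difference of 1.46 had an adjusted p of 0.0918 and passed only without the pre-cultures (0.0424, in a range of up to 0.471), nor in 201B7 (0.30, adjusted p = 0.749) or 253G1 (0.33, 0.744). Of its other probes, 1 passed in MEF-CM, at least 2.07-fold higher (0.0376) with 2 of 6 arrays well above background in H1 in E8 Medium and overlapping groups, but not without the FGFC cultures (adjusted p = 0.307) or against the 3 pre-cultures (0.221). Against the 3 pre-cultures both other probes were lower past the test in 201B7 and 253G1 as well, where the lead probe was not.

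FLJ46120 and LINC00458 rest on fewer measured arrays and on single cultures. FLJ46120 was at -4.30, -5.16 and -4.95 in 201B7, where 2 of 6 arrays were well above background, against 0.94, -0.03 and -4.30 in H1 in E8 Medium, where the FGFC culture was as low. The difference of -3.67 (95% interval -5.87 to -1.48, limma adjusted p = 0.0198, -3.49 relative to the median) was lost without the bFGF cultures (-2.95, adjusted p = 0.262), without the pre-cultures (-2.89, 0.142) and with normexp correction (-1.81), while it was -5.19 without the FGFC cultures (0.000169) and -5.17 against the 3 H1 pre-cultures (2.89e-05). In KhES-1 (-2.18, -1.83 and -0.44) and 253G1 (-1.95, -1.47 and -3.74) the differences of FLJ46120 were -0.35 and -1.26 and did not pass (0.786 and 0.416, and up to 0.965 and 0.848 in the alternatives). They passed only without the FGFC cultures, at -2.46 (0.00361, -1.94 relative to the median) and -2.17 (0.0238), and against the 3 pre-cultures, at -1.85 (0.0132, -1.37) and -2.76 (0.00317). In KhES-1 the direction turned, to 1.03 without the pre-cultures and 0.37 without the bFGF cultures. LINC00458 was at -0.71, -1.32 and -0.60 in KhES-1, at -1.63, -0.10 and 0.34 in 201B7 and at 0.12, 0.64 and -1.60 in 253G1, against -1.46, -3.41 and -6.49 in H1 in E8 Medium, where 4 of 6 arrays were well above background. The differences of 2.91, 3.33 and 3.51 (adjusted p = 0.0247, 0.0254 and 0.0308; 3.37, 3.51 and 3.50 relative to the median) were lost without the FGFC cultures, at 1.42, 1.57 and 2.81 with adjusted p-values of 0.122, 0.158 and 0.0504, and also without the bFGF cultures, at 3.32, 3.33 and 3.24 with adjusted p-values of 0.104, 0.194 and 0.216. Against the 3 H1 pre-cultures they were 1.57, 1.98 and 2.16 with adjusted p-values of 0.0564, 0.0375 and 0.0238, so that the call in KhES-1 was lost. The groups overlapped in 201B7 and 253G1. Of the other 3 probes of LINC00458, 1 passed in all of these systems, at least 3.70-fold, 6.49-fold and 6.65-fold higher, with 2 of 6 arrays well above background in H1 in E8 Medium, and the other 2 in none. For that probe the adjusted p was 0.0799, 0.0598 and 0.0309 without the FGFC cultures and 0.0707, 0.0186 and 0.0175 against the 3 pre-cultures, where the probe with r = -0.01 was lower past the test in KhES-1 and 201B7.

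**Figure D3:**
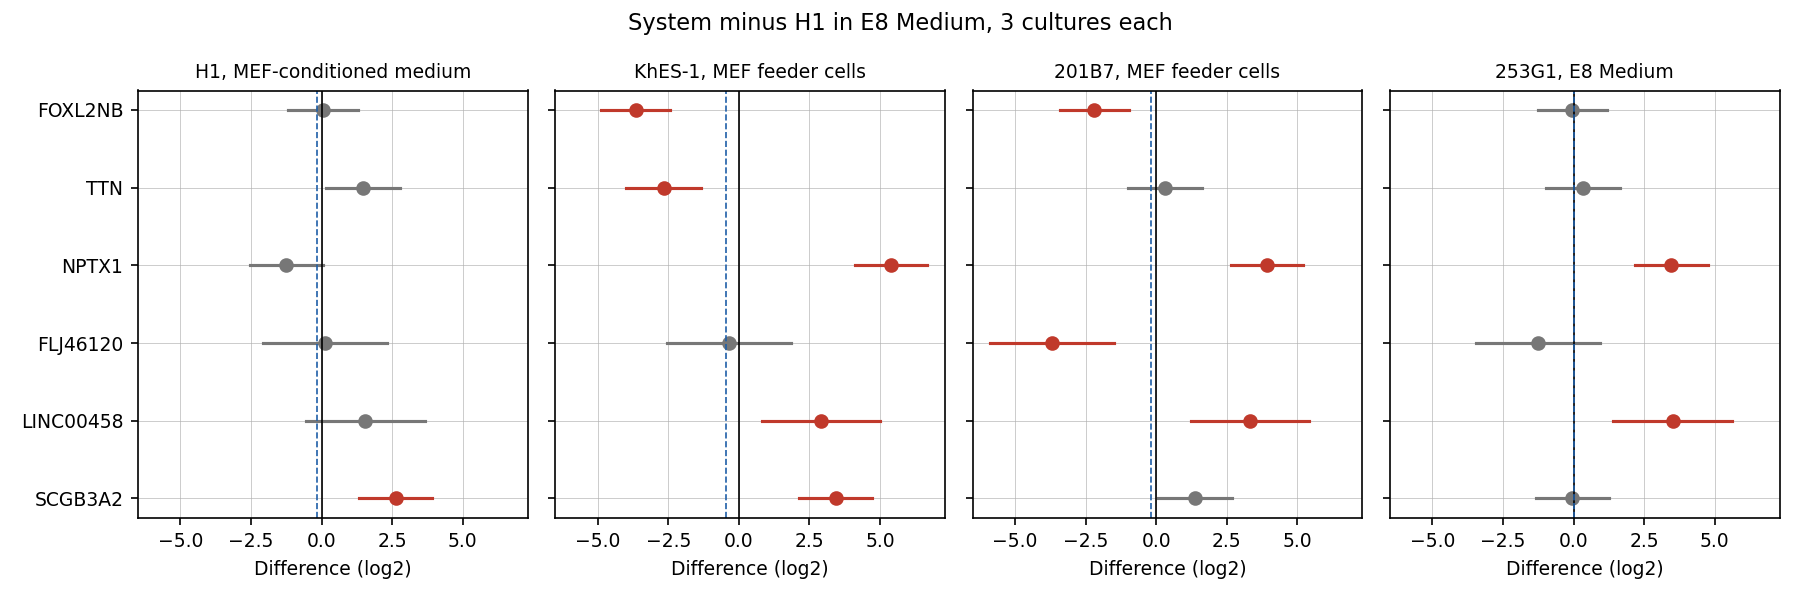
Difference in normalized log2 signal between each system and H1 in E8 Medium (horizontal axis) for the lead probe of each gene, with its 95% interval from limma over 3 cultures a system, in red where adjusted p is under 0.05 and grey elsewhere, and where the dashed line is the median over all probes. NPTX1 lies at 3.46 to 5.38 in the 3 other lines and at -1.25 in H1 in MEF-CM. The H1 group holds cultures that were part of the choice of the genes, so the red marks are not independent of it. Those of LINC00458 were lost without the FGFC cultures.

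By count, 2 of the 6 genes were lower and 3 higher in KhES-1, beside 38.6% and 11.2% of all probes, and 2 were lower and 2 higher in 201B7, beside 13.9% and 9.10%. In MEF-CM 0 were lower and 1 higher, beside 20.8% and 7.80%, and in 253G1 0 were lower and 2 higher, beside 8.67% and 4.59%. Nothing is read from these counts, since this H1 group holds cultures that were part of the choice. Without the FGFC cultures the counts of the 6 genes were 3 lower and 2 higher in KhES-1 (32.8% and 7.54% of all probes), 2 and 1 in 201B7 (7.52% and 6.88%), 0 and 1 in MEF-CM (12.4% and 3.09%) and 1 and 1 in 253G1 (3.67% and 1.58%). Against the 3 H1 pre-cultures they were 3 and 2 in KhES-1 (36.0% and 15.9%), 2 and 2 in 201B7 (15.9% and 10.5%), 1 and 1 in MEF-CM (15.8% and 6.69%) and 2 and 2 in 253G1 (17.3% and 17.0%). Of the 12 calls, 8 were lost without the bFGF cultures and 1 against the 3 pre-cultures. The shares of all probes depend on the scaling. KhES-1 had 16370 lower and 4754 higher probes, but 5140 and 5032 with quantile normalization and 3517 and 2939 with normexp, and MEF-CM had 8833 and 3309, but 3250 and 3395 and 2167 and 1601. In 201B7 the split was 5887 and 3859, but 2162 and 3002 with normexp, and in 253G1 it was 3678 and 1946, but 3651 and 3251 with quantile normalization and 1013 and 926 with normexp. Without the bFGF cultures the counts were 7110 in KhES-1, 2614 in MEF-CM, 2090 in 201B7 and 656 in 253G1, against 21124, 12142, 9746 and 5624. They were 17113 in KhES-1, 6579 in MEF-CM, 6108 in 201B7 and 2223 in 253G1 without the FGFC cultures, and in 253G1 3242 without the pre-cultures and 14538 against the 3 H1 pre-cultures. None of the 12 results of the 6 genes that passed changed direction under any alternative. DUSP6, relative to the median of all probes, was lower than in H1 in E8 Medium by -3.67 in 201B7, -3.26 in KhES-1, -2.57 in MEF-CM and -0.76 in 253G1, all past the test. The summed level of 8 fibroblast markers was 7.99, 7.15 and 6.23 in the cultures of 201B7 against 5.85, 5.73 and 5.54 in H1 in E8 Medium, and 5.29, 5.45 and 5.39 in KhES-1, and their part in these results was not tested.

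Taken over all 27 cultures, each gene covered a range of more than 6 log2 units. FOXL2NB ran from -6.49 to 1.16 (median -0.69) and was below background on both arrays in 4 cultures, the 3 without FGF and the differentiated one. TTN ran from -5.88 to 1.53 (median -0.02), FLJ46120 from -6.18 to 0.94 (median -1.24) and LINC00458 from -6.58 to 0.64 (median -2.10), each with its lowest value in a culture without FGF. NPTX1 ran from -3.82 to 4.32 (median 1.10) and SCGB3A2 from 0.06 to 6.12 (median 3.76), and both were well above background on both arrays of all 27 cultures. The highest culture was a pre-culture of H1 in E8 Medium for FOXL2NB and FLJ46120, H1 in MEF-CM with bFGF for TTN, KhES-1 for NPTX1 and SCGB3A2, and 253G1 with bFGF for LINC00458.

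The differentiated H1 culture was low for all 6 genes, each by 2-fold or more against the mean of the 3 H1 pre-cultures, beside 15.4% of all probes. All 6 lead probes were well above background on 6 of 6 pre-culture arrays, unlike many of all probes. The share is thus not a like comparison, and nothing is read from the count. FOXL2NB was at -5.43 and FLJ46120 at -5.65, neither well above background on any array, at least 74.9-fold and at least 64.8-fold lower. The others were still measured. TTN was at -2.24 (a difference of -2.97), NPTX1 at -2.19 (-2.10), LINC00458 at -3.77 (-1.32) and SCGB3A2 at 0.06 (-3.57). The duplicates of the lead probe of LINC00458 lay 1.70 apart, its largest gap. Of its other probes, the one with r = 0.94 was at least 5.78-fold lower with 0 of 2 arrays well above background. The one with r = 0.96 was well above background on 1 of 2 and differed by only -0.72. TTN, NPTX1 and the lead probe of LINC00458 were above their means of -5.63, -3.51 and -6.48 in the 4-day cultures without FGF, whereas SCGB3A2 was below its mean of 1.87 there. In this culture POU5F1 was lower by -5.30 and NANOG by -4.37, and it is 1 culture without a replicate check.

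**Figure D4:**
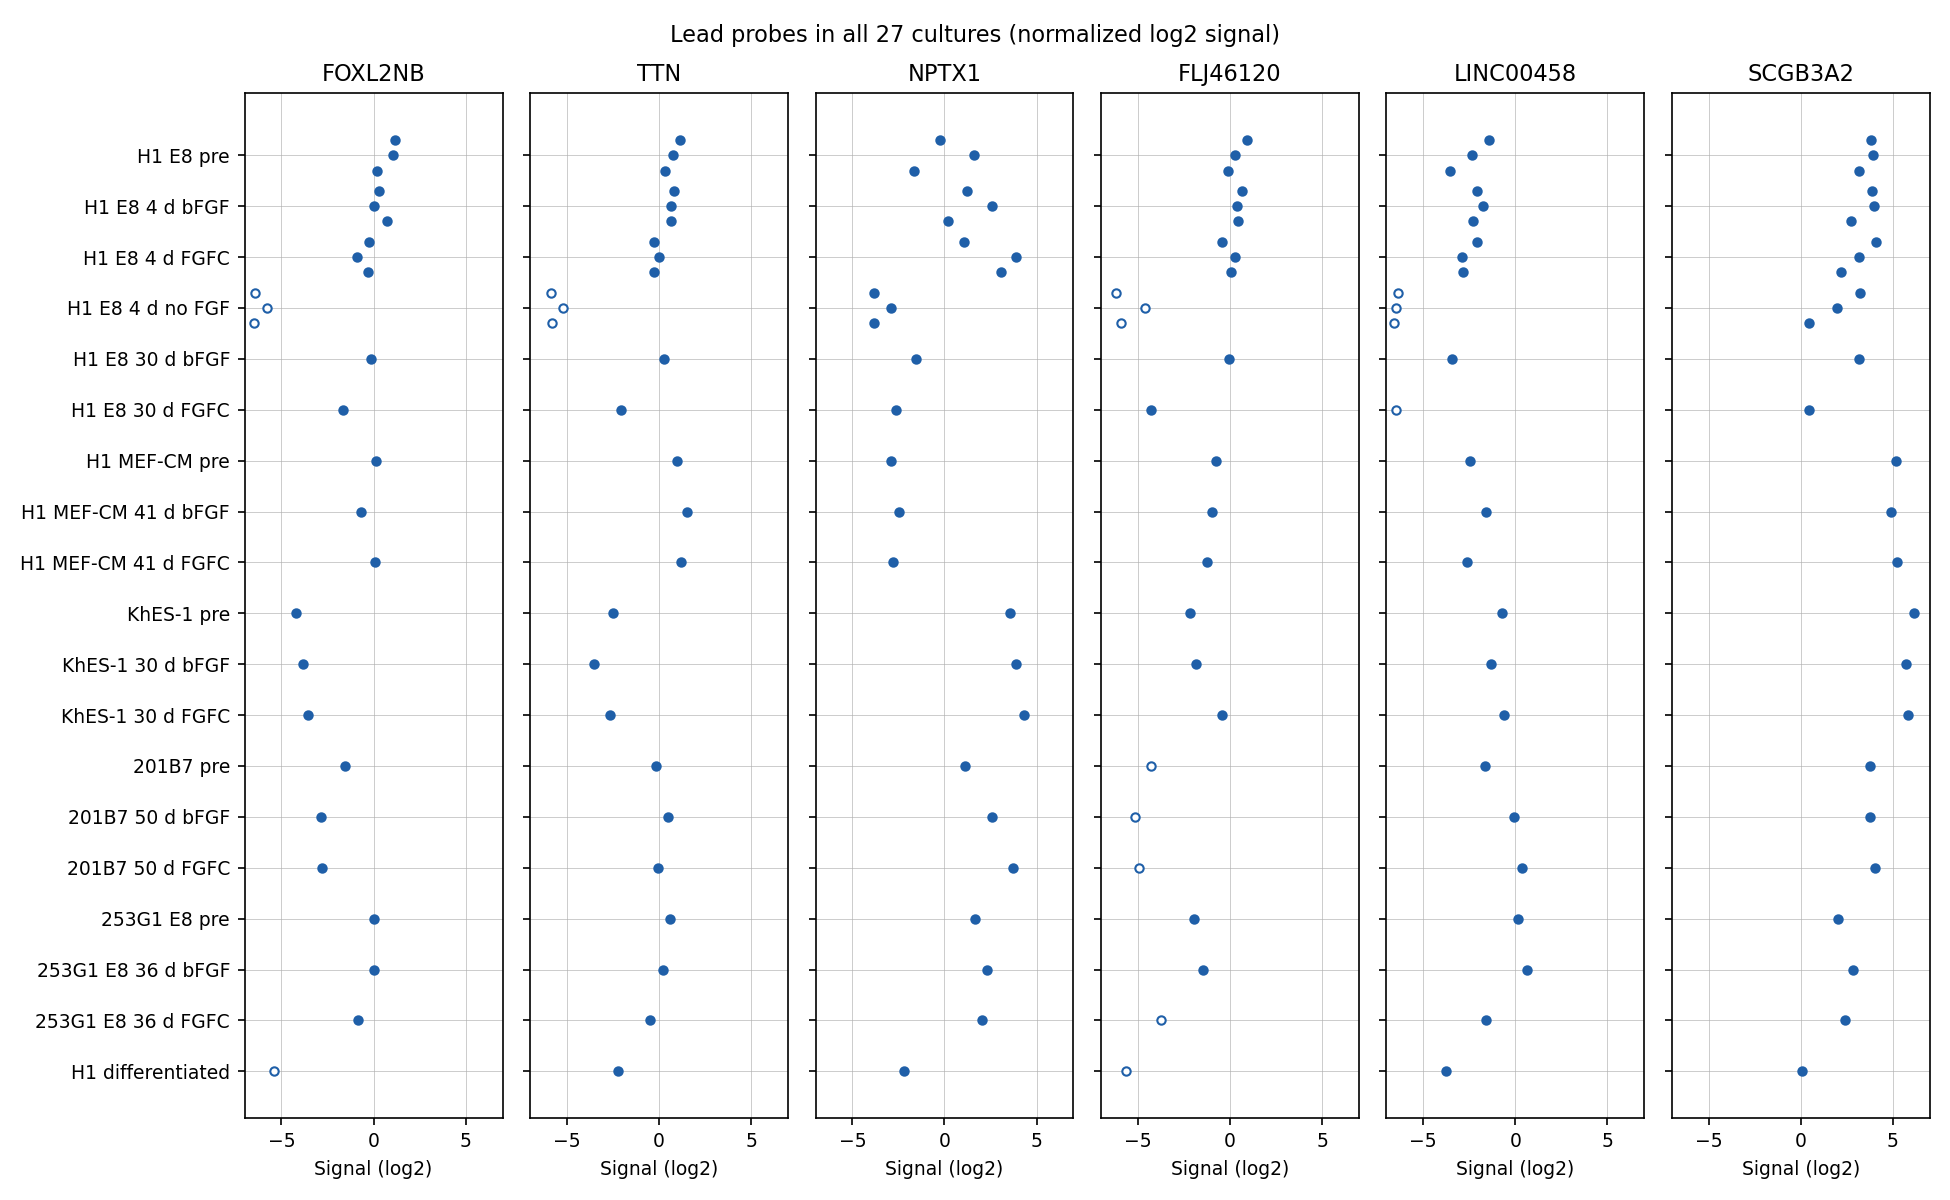
Normalized log2 signal (horizontal axis) of the lead probe of each gene in all 27 cultures, by group (vertical axis), where each circle is 1 culture, filled where both arrays were well above background and open where not, with experiments 1 to 3 from top to bottom. NPTX1 is at -3.82 to -2.88 without FGF and at 3.53 to 4.32 in KhES-1, and FLJ46120 is open in the 3 cultures of 201B7.

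Across the 27 cultures FOXL2NB and TTN were most alike among the 6 (Pearson r = 0.91), and r was 0.80 over the 18 cultures outside the 4-day arms. FOXL2NB and FLJ46120 had r = 0.79 (0.63 over the 18), and NPTX1 and LINC00458 had r = 0.74 (0.73). FOXL2NB and NPTX1 had r = 0.20, which was -0.38 over the 18 cultures, and TTN and LINC00458 had r = 0.62, which was 0.14 over the 18. These coefficients are descriptions. The values of all genes come from the same arrays, and the cultures include the 3 without FGF, in which most of these genes were low by choice.

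Among 7288 other lead probes with a symbol and enough signal and spread, those most like each gene over the 27 cultures were as follows. For FOXL2NB they were FAM110C (r = 0.94), FOXL2 (0.94) and SH2D3A (0.93), and for TTN they were FAM110C (0.92), its neighbour CCDC141 (0.92) and ITPR2, a calcium channel of the endoplasmic reticulum (0.92). For NPTX1 they were FBXL16 (0.87) and the near-identical glutathione transferase genes GSTT2 and GSTT2B (both 0.86), and for FLJ46120 they were TRDN, which encodes triadin (0.88), OR52A1 (0.87) and LRRFIP1 (0.86). For LINC00458 they were CHP2 (0.90), TAP1 (0.89) and SOHLH2 (0.89), and for SCGB3A2 they were LEFTY1 (0.90), KLHL6 (0.90) and MFSD6L (0.88). Over the 18 cultures outside the 4-day arms r was 0.79 or more for each of these pairs. All of them had lower mean signals without FGF than with bFGF. Nothing is read from this, since the cultures used to find them include those without FGF.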

How the data were processed

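Total RNA of 27 cultures was hybridised to 54 Agilent arrays. The authors deposited the spot intensity after background subtraction and spatial detrending by Feature Extraction 10.7.3.1, linear and without scaling across arrays, and the deposited marks of the same software are other values, a yes or no per spot for saturated, outlying and well above background. Spots marked as outliers, 266 to 623 an array, and control spots were dropped, signals were floored at 1, replicate spots were averaged, and the log2 signal minus the array's 75th percentile was averaged over duplicate arrays, for 42405 probes. RefSeq accessions named 25711 probes, and 1321 were named from the supplementary tables of the study, among them those of FLJ46120 and LINC00458. These tables list only probes that differed 2-fold or more between FGFC and bFGF in a long-term system. limma 3.58.1 in R 4.3.3 compared cultures, with p-values adjusted over all probes by the Benjamini-Hochberg method. The members and lists were chosen with earlier results of these data known, and 1 gene of the neural list is not reported here and is left out of the values of that list. Genes were named by a fixed rule: all members, the 3 most alike per member, up to 4 genes of each list by size of difference among those past the test, and FOXL2, MME, NPTX2, SCGB3A1, POU5F1, NANOG and DUSP6. Other genes named, among them neighbours along the chromosome and markers below background, fall outside this rule and were named after their values were seen. Cultures without FGF deviated together with the same-numbered cultures with an FGF (r = 0.19 to 0.32 with bFGF and 0.23 to 0.26 with FGFC), so differences are given by experiment. This was less so between FGFC and bFGF (0.08 to 0.18), and r between a pre-culture and a 4-day arm ran from -0.16 to 0.52. The main test of the 4-day arms has no block for the experiment, which is an alternative. Alternatives were normexp correction, quantile normalization, a background filter, blocks for replicate, slide or stage, leaving out each experiment or culture type, and, chosen after the data were seen, the 3 H1 pre-cultures as the H1 group.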

Additional observations from a re-analysis of the deposited data

Results flagged for a closer look

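Differences of 2-fold or more in opposite directions in different systems, with both arrays of the FGFC culture on the same side of bFGF, were found for 2 genes, each from 1 culture per arm, and the difference was not tested in any case. FGFC minus bFGF of NPTX1 was -1.04 in H1 in E8 Medium and 1.15 in 201B7, a gap of -2.19. For FLJ46120 it was -4.27 in H1 in E8 Medium and 1.39 in KhES-1, a gap of -5.67. FLJ46120 was also at -2.27 in 253G1, a gap of -3.66 to KhES-1, with 1 of 2 arrays of the FGFC culture of 253G1 well above background. The values in H1 in E8 Medium were part of the choice of the genes. Those of the other systems may have been too, so nothing is read from these gaps.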

How the results depend on the processing

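The number of probes past limma's test depended on the setting in each comparison named here, and the cause was not tested except that leaving out cultures or filtering probes leaves fewer of them. With normexp correction it was 5164 in 201B7 (9746 as reported), 1939 in 253G1 (5624), 3768 in MEF-CM (12142) and 6456 in KhES-1 (21124). The background filter gave 5925 in MEF-CM and 11385 in KhES-1, quantile normalization 6645 and 10172, and slide as a random block 3351 in 253G1. The 3 H1 pre-cultures as the H1 group, chosen after the data were seen, gave 14538 there. Leaving out the pre, bFGF or FGFC cultures gave 2090 to 9077 in 201B7, 656 to 3242 in 253G1, 2614 to 14096 in MEF-CM and 7110 to 17573 in KhES-1. Leaving out 1 experiment gave 1272 to 3557 for no FGF against bFGF (5400) and 974 to 3840 for no FGF against FGFC (4575).

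For the 6 genes, 36 values of no FGF minus bFGF moved by less than 1 SD and 6 moved by more, 5 with normexp correction and 1 with quantile normalization, and none changed sign. In the system tests of the 6 genes under alternatives, 195 values kept their side of the threshold, 14 lost the call (8 without the bFGF cultures, 3 without the FGFC cultures, 1 without the pre-cultures, 1 with normexp correction and 1 against the 3 H1 pre-cultures) and 7 gained it. Of 12 results past the test, 4 were past it under all 9 alternatives. Of 53 list genes past the test, 19 were so under every alternative.

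With a replicate block, 5750 probes passed for no FGF against bFGF, 4928 for no FGF against FGFC and 0 for FGFC against bFGF. The block moved none of these counts by over 1.5 times, and no list gene past the test lost its call with it. Differences in which a probe was not well above background are limited by signal over background.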

Other observations

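Markers of other cell types in the 4-day H1 cultures, in limma's test of no FGF against bFGF, did not move as one. Of 11 amnion and trophoblast markers measured, 4 were higher and 7 did not pass (median 0.84 beside 0.01 over all probes), and 3, 4 and 2 were higher without experiment 1, 2 or 3. The median was 2.27 over the 3 markers well above background in a group and 0.23 with normexp correction. GATA3 was at least 20.1-fold higher (adjusted p = 3.24e-05), TFAP2A at least 9.42-fold (0.00131, and 0.0824 without experiment 3) and IGFBP3 rose by 2.27 (0.000162), and ISL1 was at least 1.75-fold higher with 1 of 6 arrays well above background (0.0101, up to 0.162 in the alternatives). The highest signal was that of KRT7, and their summed level was 3.34, 2.81 and 2.86 without FGF against 2.80, 3.00 and 2.63 with bFGF. Of 10 mesendoderm and endoderm markers, 1 was lower, 2 were higher and 7 did not pass (median 0.21), against 1, 0 and 0 lower and 1 higher each without experiment 1, 2 or 3. CXCR4 rose by 3.03 (0.000417), GSC was at least 1.53-fold lower, with 4 of 6 arrays well above background with bFGF and 0 of 6 without FGF (0.0325, up to 0.413 in the alternatives), and TBXT, although past the test, was not well above background on any array of either arm. Of 8 fibroblast markers, 2 fell and 6 did not pass (median -0.16), and 1 was lower without any one experiment. THY1 had the highest signal and fell by 1.70 (0.000209), PDGFRB fell by 1.01 (0.00931, up to 0.183 without any one experiment), and DCN and LUM were not well above background.

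The following probes were chosen after their values were seen. Of 3 array probes for lincRNA regions near LINC00458, none was well above background on any array without FGF. Against bFGF, 2 of them were at least 12.8-fold and at least 5.38-fold lower. The third, with 2 of 6 arrays well above background with bFGF, was at least 1.25-fold lower, and its groups overlapped. Of 2 region probes beside FLJ46120, 1 differed by -0.13 and was well above background on all of these arrays, and the other on none.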
